A study of Mus musculus with 6 samples.

Results

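The genes described here encode structural proteins of the extracellular matrix and transcription factors of the connective tissue that surrounds the embryonic brain. They were chosen by name, as a list of 40 gene symbols of meningeal, mesenchymal and matrix genes, and each was read from every non-control probe set whose platform annotation gave exactly 1 symbol. Of the 40, 39 genes had such a probe set, 83 probe sets in all, out of 18193 genes and 34945 probe sets with 1 symbol on the array. Fbn1, which encodes the microfibril protein fibrillin-1, had none and was skipped. RNA was taken from mouse embryos at E13.5, from ventral forebrain tissue that is called ventral telencephalon in the sample labels. It was hybridised to the Affymetrix whole-genome mouse array MOE430 2.0. The knockout embryos were Olig2-/-, lacking the basic helix-loop-helix factor Olig2 of ventral progenitors, and the wild-type embryos were Olig2+/+. The sources used here do not say how the allele was made or what the strain was. Each array carried the pooled RNA of 3 brains. The knockout had 3 arrays (replicates 2, 4 and 5) and so did the wild type (replicates 1, 4 and 5). No label says that the pools came from separate litters, so the p-values measure the spread between these arrays. Values are log2 expression per probe set, so a difference of 1 is a doubling, and the lowest value the processing gives is about 2.27.

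The meninges are the fibroblast-rich membranes around the brain. Their fibroblasts secrete fibrillar collagens, small leucine-rich proteoglycans and other matrix proteins, and transcription factors such as Foxc1, Twist1, Tbx18 and Prrx1 mark them or the cranial mesenchyme from which they form. Basement membranes are a different kind of matrix: sheets of type IV collagen, laminins and nidogens that lie under the meninges at the brain surface and around every blood vessel. A dissected piece of embryonic forebrain can carry basement membrane genes through its vessels and its surface. It can carry fibroblast genes through any membrane or mesenchyme that comes with it. Which cells gave the values below was not tested. In RNA from whole tissue, more cells of a type and more RNA per cell cannot be told apart.

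Olig2 itself read 7.48, 7.53 and 7.76 on the knockout arrays and 8.20, 8.22 and 8.42 on the wild-type arrays, so the groups did not overlap. The same held, in either direction, for 16.4% of all genes compared. The log2 difference of Olig2 was -0.69 (limma's adjusted p = 0.511). Even the knocked-out gene thus did not pass the adjusted threshold applied to the genes below. Why its probe set still gave signal on the knockout arrays was not tested. Array medians lay between 3.14 and 3.19 over 45037 non-control probe sets, and the number of arrays limits the precision of every value below. Of 15 markers of the ventral telencephalon, 13 were on the array and 12 passed the filter on low values, which kept probe sets above their own array's median on at least 3 of the 6 arrays. Their mean level was 9.11 to 9.17 on the knockout arrays and 9.12 to 9.33 on the wild-type arrays, and each of the 13 was above the array median on some array. Wild-type replicate 1 stood apart from the rest: it was the highest of the 6 arrays for 26.6% of the probe sets that passed the filter and the lowest for 28.4%. Knockout replicate 2 stood apart for fewer probe sets, and these included many of the genes described here.

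A subset of the fibroblast genes read higher on knockout replicate 2 than on any other array, while others, Foxc1, Twist1, Tbx18 and Dcn among them, were highest on wild-type replicate 1. Knockout replicate 2 was at least 1 log2 unit above every other array for 31 of all 45037 non-control probe sets, or 0.0688%. Of these 31 probe sets, 10 belonged to the genes described here, out of their 83, or 12%. They stood for 7 genes: Postn, Col1a2, Col1a1, Col3a1, Ogn, Prrx1 and Lum. No member probe set was at least 1 above the rest on any other array. Among all probe sets, wild-type replicate 1 had 72 (0.16%), wild-type replicates 4 and 5 had 12 (0.0266%) and 4 (0.00888%), and knockout replicates 4 and 5 had 4 (0.00888%) and 5 (0.0111%). The step of 1 was chosen after the values had been seen.

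The stretches of DNA just upstream of 4 of these 7 genes are shown because the genes share the same pattern across arrays. RefSeq promoter entries (GRCm38.p6) were found for 26 of the 40 symbols. Each line gives the 150 bases before the annotated transcription start, on the + strand, 5′ to 3′. Capitals mark matches to TATAAA, to CCAAT (both searched on both strands) or to CANNTG, the E-box, which reads the same on both strands and which basic helix-loop-helix factors such as Twist1 and Olig2 can bind.

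Postn, chr3:54360957-54361106: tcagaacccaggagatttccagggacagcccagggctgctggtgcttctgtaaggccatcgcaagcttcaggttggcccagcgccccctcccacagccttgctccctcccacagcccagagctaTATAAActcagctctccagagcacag

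Col1a2, chr6:4505468-4505617: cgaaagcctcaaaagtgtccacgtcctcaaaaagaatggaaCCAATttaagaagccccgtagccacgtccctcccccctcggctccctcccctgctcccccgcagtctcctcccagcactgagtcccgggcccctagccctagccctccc

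Col3a1, chr1:45311388-45311537: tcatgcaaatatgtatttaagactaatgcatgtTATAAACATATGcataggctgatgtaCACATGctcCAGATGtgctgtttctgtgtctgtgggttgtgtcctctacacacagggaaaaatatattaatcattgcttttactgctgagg

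Ogn, chr13:49607865-49608014: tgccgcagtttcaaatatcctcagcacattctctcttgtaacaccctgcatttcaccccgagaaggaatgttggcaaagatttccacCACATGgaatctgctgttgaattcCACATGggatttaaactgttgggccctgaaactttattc

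For Postn, which has 2 annotated starts, the downstream one is shown, with TATAAA beginning at position -26 from the start. Col1a2 held a single CCAAT match at -109. Col3a1 held TATAAA at -117, directly followed by an E-box at -111, and further E-boxes at -91 and -82. Ogn held E-boxes at -63 and -39. Of all 32851 RefSeq windows of this length, 7.57% held TATAAA, 24.5% CCAAT and 47.7% an E-box. No motif was found in all 4 sequences, and a match is a description of letters, not of binding.

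Among the fibrillar collagens, Col3a1, the chain of type III collagen found in soft connective tissue, read 8.10 on knockout replicate 2 and 4.04 and 4.09 on the other knockout arrays. On the wild-type arrays it read 6.20, 4.35 and 4.67 in replicates 1, 4 and 5. Knockout replicate 2 was thus first and wild-type replicate 1 next, while knockout replicates 4 and 5 lay below every wild-type array. The knockout mean was 5.41 ± 2.33 and the wild-type mean 5.08 ± 0.99 (SD, n = 3 each), a log2 difference of 0.33 (SE 1.21, 95% interval -2.65 to 3.32; limma's adjusted p = 0.918). Without knockout replicate 2 the difference was -1.01 (limma's adjusted p = 0.559). Without that array and wild-type replicate 1 the difference was -0.45 (95% interval -0.844 to -0.055, limma's unadjusted p = 0.035 and adjusted p = 0.460). A second, dimmer probe set of Col3a1 read 4.46 on knockout replicate 2 and 2.29 to 2.58 elsewhere.

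Type I collagen, made of the chains Col1a1 and Col1a2 and the main collagen of dermis, bone and meninges, lay near the floor on most arrays. The exceptions were knockout replicate 2 and, for Col1a2, wild-type replicate 1. The brighter probe set of Col1a2 read 6.04 on knockout replicate 2, 2.506 and 2.503 on the other knockout arrays, and 3.49, 2.45 and 2.45 on wild-type replicates 1, 4 and 5. Its second probe set gave the same order of the highest arrays, with 5.84 on knockout replicate 2 and 3.13 on wild-type replicate 1. Col1a1 read 4.36 on knockout replicate 2 and 2.27 to 2.39 on the other 5 arrays, and 3.82 against 2.27 at a second probe set. Col12a1, which associates with collagen fibrils, read 3.69 on knockout replicate 2 and 2.27 to 2.79 elsewhere at its brightest probe set. None of the probe sets of these 3 genes was above its array's median on 3 arrays, so none entered the comparison of genotypes.

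Type V collagen, which nucleates fibrils, did not share this pattern. Col5a2 read 8.04, 7.89 and 7.86 on the knockout arrays and 7.80, 7.73 and 8.36 on the wild-type arrays, a difference of -0.04 with overlapping groups. Col5a1 read 5.06, 4.61 and 4.51 on the knockout arrays and 4.73, 4.34 and 4.93 on the wild-type arrays, a difference of 0.06. Knockout replicate 2 was the highest array for Col5a1, by 0.13. Without it the Col5a1 difference was -0.11 (limma's adjusted p = 0.827). Of the 3 fibrillar collagen genes that passed the filter, the knockout was higher for 2 and lower for 1, and lower for all 3 without knockout replicate 2.

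**Figure D1:**
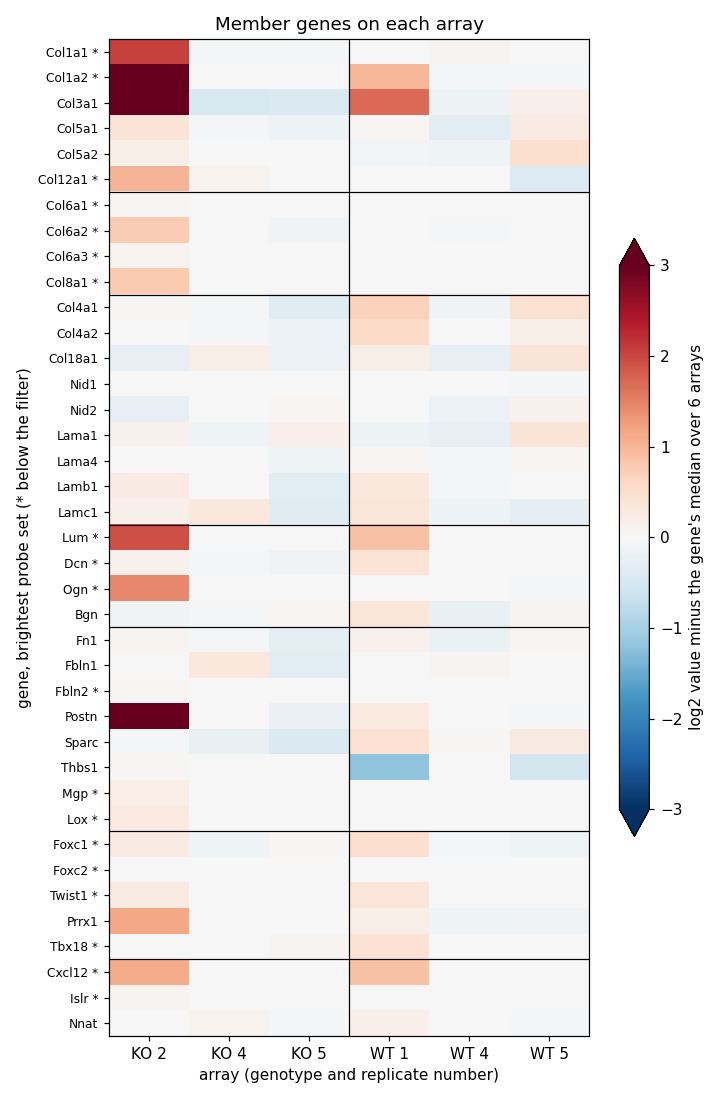
Each row is a gene at its brightest probe set and each column an array (KO, knockout; WT, wild type). The colour is the log2 value minus the gene's median over the 6 arrays, with the scale ending at 3 in either direction. Rows are grouped by role in the order fibrillar collagens, collagens VI and VIII, basement membrane, small leucine-rich proteoglycans, matrix glycoproteins and crosslinking, transcription factors, and secreted and other. The strongest colours stand in the KO 2 column, for Postn, Col1a2, Col3a1, Col1a1 and Lum, and weaker ones in the WT 1 column.

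The matrix glycoprotein Postn (periostin), which is made by fibroblasts and osteoblast precursors, had the widest range across arrays of the 20 genes of the list that passed the filter. It read 7.93 on knockout replicate 2 and 3.56 and 3.36 on knockout replicates 4 and 5, against 3.86, 3.56 and 3.51 on wild-type replicates 1, 4 and 5. Knockout replicate 2 lay 4.07 above the next highest array, and the other 5 arrays lay between 3.36 and 3.86. The knockout mean was 4.95 ± 2.58 and the wild-type mean 3.64 ± 0.19 (SD, n = 3 each). The difference of 1.31 had an SE of 1.24 and a limma adjusted p of 0.655. Without knockout replicate 2 it was -0.19 (limma's adjusted p = 0.626).

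Small leucine-rich proteoglycans bind collagen fibrils and set their spacing. Lum (lumican) read 4.22 on knockout replicate 2, 3.15 on wild-type replicate 1 and 2.27 to 2.28 on the other 4 arrays. Ogn (osteoglycin) read 3.82 on knockout replicate 2 and 2.35 to 2.37 on the rest, wild-type replicate 1 included. Dcn (decorin) lay near the floor everywhere and was highest on wild-type replicate 1, at 3.04, followed by 2.76 on knockout replicate 2 and 2.52 to 2.63 on the others. Of these 4 genes, Bgn (biglycan) alone passed the filter. Its brightest probe set read 6.13, 6.18 and 6.30 on the knockout arrays and 6.59, 6.02 and 6.31 on the wild-type arrays, a difference of -0.11 with overlapping groups (limma's adjusted p = 0.768). Its other probe sets differed by -0.26, without overlap, and by -0.07.

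**Figure D2:**
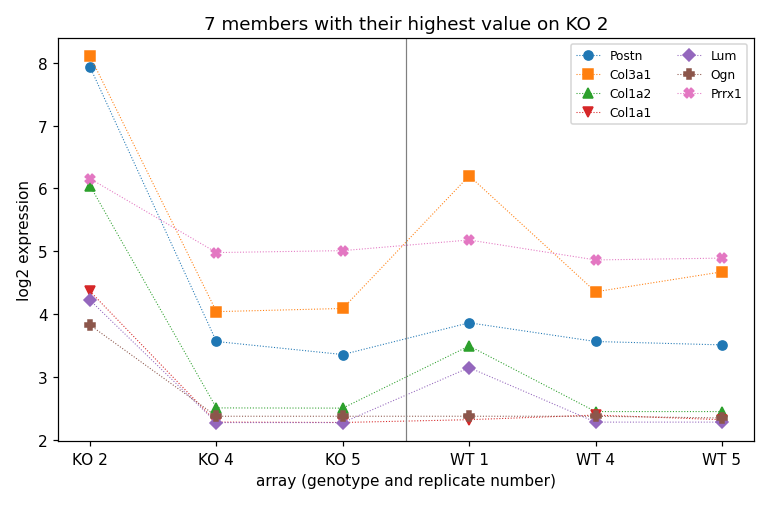
Log2 expression (vertical axis) of 7 genes at their brightest probe set on each of the 6 arrays (KO, knockout; WT, wild type). Dotted lines join the points of a gene and do not mark an order of arrays. All 7 are highest on KO 2, and Col3a1 (6.20), Prrx1 (5.18), Postn (3.86), Col1a2 (3.49) and Lum (3.15) have their next highest value on WT 1.

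Mesenchymal transcription factors were mostly below the filter. Prrx1, a homeobox gene of limb and cranial mesenchyme, passed it at 2 of its 6 probe sets. The brighter one read 6.15 on knockout replicate 2, 4.98 and 5.01 on the other knockout arrays and 5.18, 4.86 and 4.89 on the wild-type arrays. It differed by 0.40 between genotypes (SE 0.34; limma's adjusted p = 0.618) and by 0.02 without knockout replicate 2. The dimmer one read 4.47 on knockout replicate 2 and 2.89 to 3.39 elsewhere, and differed by 0.38. Foxc1, a forkhead factor needed for the meninges, read 3.23, 2.84 and 3.00 on the knockout arrays and 3.47, 2.95 and 2.85 on the wild-type arrays, so here wild-type replicate 1 was highest. Twist1, a basic helix-loop-helix factor of cranial mesenchyme, read 2.64 on wild-type replicate 1, 2.53 on knockout replicate 2 and 2.27 on the other 4. Tbx18, a T-box factor of mesenchyme and mural cells, read 2.76 on wild-type replicate 1 and 2.31 to 2.42 elsewhere. Foxc2 read 2.27 on every array.

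The remaining fibroblast products lay close to the floor. The chemokine Cxcl12, which meningeal cells secrete, read 3.49 on knockout replicate 2, 3.25 on wild-type replicate 1 and 2.37 to 2.38 on the others at its brightest probe set. Col6a2, a chain of the beaded-filament collagen VI, read 3.15 on knockout replicate 2 and 2.29 to 2.38 elsewhere. Col8a1, a short-chain network collagen, read 3.05 on knockout replicate 2 and 2.28 on the other 5. The crosslinking enzyme Lox read 2.56 on knockout replicate 2 and 2.28 elsewhere, and the matrix Gla protein Mgp 2.46 and 2.27. Col6a1, Col6a3, Fbln2 (fibulin-2) and Islr stayed below 3 on all 6 arrays.

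In all, 19 of the 39 genes had no probe set above the filter, and 9 of those 19 stayed below 3 on every array. Of the 52 member probe sets left out, 24 varied by less than 0.1 across the 6 arrays. Among the 28 that varied more, knockout replicate 2 was the highest array for 19 and wild-type replicate 1 for 6. Of all 5221 such probe sets on the array, these arrays were the highest for 17.3% and 19.5%. Knockout replicate 2 and wild-type replicate 1 were the highest 2 arrays for 20 of the 83 member probe sets, against 2.62% of all non-control probe sets. Of these 20, 13 had been left out by the filter. In some of them wild-type replicate 1 hardly differed from the lower arrays. It read 2.3416 against 2.3403 at a probe set of Col8a1 and 2.2823 against 2.2728 for Col6a3. The filter asks for 3 arrays above their own median, so a gene present on 1 array could not pass it.

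Levels of other cell types were set beside these values. The choroid plexus marker Ttr (transthyretin) read 9.99, 6.42 and 4.85 on knockout replicates 2, 4 and 5 and 8.36, 10.96 and 3.46 on wild-type replicates 1, 4 and 5. It was highest on wild-type replicate 4, followed by knockout replicate 2 and wild-type replicate 1. Postn read 3.56 and Col1a2 2.45 on wild-type replicate 4. Of 7 choroid plexus markers on the array 2 passed the filter, Ttr and Otx2. Their mean was 6.47 to 9.10 on the knockout arrays and 5.90 to 9.43 on the wild-type arrays. Otx2 read 8.10 to 8.47 on the knockout arrays and 7.91 to 8.34 on the wild-type arrays, so the range of the mean came mostly from Ttr. Aqp1, Folr1, Kcne2 and Kl were above the array median nowhere. Clic6 was above it on knockout replicate 2 alone, at 3.54, with 2.36 to 3.16 on the other arrays. Kcne2 was highest on wild-type replicate 4, at 2.80, with 2.49 on knockout replicate 2 and 2.37 elsewhere. Folr1 read 2.39 on wild-type replicate 4 and 2.28 elsewhere, while Aqp1 and Kl did not vary. Of 14 markers of cartilage, bone and muscle 2 passed, Sox9 and Alpl, with means of 5.37 to 5.56 on the knockout arrays and 5.37 to 5.73 on the wild-type arrays. The other 12, which include Acan, Sp7, Ibsp and Myod1, were above the array median nowhere. Below it, Cnmd, a cartilage gene, read 3.04 on knockout replicate 2 and 2.51 to 2.59 elsewhere, and Myh3, a muscle myosin, 3.13 and 2.80 to 2.90. Cnmd and Myh3 were chosen after their values were seen. Ibsp was highest on knockout replicate 2 by 0.050. Tnnt1 was lowest on knockout replicate 2, at 2.32 against 2.38 to 2.56, and Actc1 was highest on wild-type replicate 1. Acan, Matn1, Myod1 and Myf5 did not vary. Of 12 markers of epithelium 1 passed, Grhl2, at 3.20 to 3.42 on the knockout arrays and 3.20 on the wild-type arrays, and Krt5, Krt14, Epcam, Cdh1 and Trp63 were among the 11 above the array median nowhere. Below it, Perp read 3.03 on knockout replicate 2 and 2.48 to 2.61 elsewhere, and Cdh1 2.65 and 2.30. Perp and Cdh1 were also chosen after their values were seen. Krt18 was highest on knockout replicate 2 by 0.047. Epcam and Trp63 were highest on wild-type replicate 5 and Krt8 on knockout replicate 5, while Krt5 and Krt14 did not vary. Of 12 markers of blood and microglia 8 passed, with means of 6.62 to 6.94 and 6.49 to 6.79. The part of these cells in the values above was not tested.

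Basement membrane genes all passed the filter, and at their brightest probe sets knockout replicate 2 did not stand apart for them. Of the 9 genes, 6 were lower and 3 higher in the knockout, with a median difference of -0.06, against -0.00150 over all 10630 genes that passed the filter, of which 50.5% were lower. The highest array was wild-type replicate 1 for 5 of the 9, against 31.4% of all genes, and knockout replicate 2 for 1, Nid1, by 0.011. The larger differences were those of the type IV collagen chains, and none passed the threshold.

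Col4a1 and Col4a2, which together form the most common type IV collagen molecule, lie head to head in the genome and share a promoter region. Col4a1 read 8.16, 8.07 and 7.75 on knockout replicates 2, 4 and 5 and 8.81, 8.005 and 8.57 on wild-type replicates 1, 4 and 5. The difference was -0.47 (SE 0.23, 95% interval -1.04 to 0.10; limma's adjusted p = 0.513). Wild-type replicates 1 and 5 were above all knockout arrays, and wild-type replicate 4 was not. Col4a2 read 7.06, 7.03 and 6.87 on the knockout arrays and 7.64, 7.05 and 7.23 on the wild-type arrays, a difference of -0.32 (SE 0.16; limma's adjusted p = 0.515). Without wild-type replicate 1 the differences were -0.29 for Col4a1 and -0.15 for Col4a2. A second probe set of Col4a1 differed by -0.35.

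Laminins are the cross-shaped trimers that start basement membrane assembly. Lamc1, the gamma chain of most of them, read 4.89, 5.04 and 4.37 on the knockout arrays and 5.10, 4.58 and 4.45 on the wild-type arrays, with a difference of 0.06 and a within-genotype SD of 0.35. Lamb1 differed by -0.12 at its brightest probe set and by 0.11 at another, Lama1 by 0.06 and Lama4, the alpha chain of vessel walls, by -0.06. That other Lamb1 probe set read 6.30 on knockout replicate 2 and 5.48 to 5.86 elsewhere, and differed by -0.10 without that array. A dimmer Lamb1 probe set, left out by the filter, read 3.49 on knockout replicate 2 and 2.95 to 3.20 elsewhere. The within-genotype SD is the spread of the 3 arrays around their own mean, pooled over both genotypes. It was 0.07 for Lama4 and 0.27 for Lama1, so these genes differed more in spread than in genotype difference.

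Nidogens link the laminin and collagen IV networks. The brighter probe set of Nid1 read from 6.45 to 6.52 over the 6 arrays, the smallest within-genotype SD of the members that passed the filter (0.023). It read 6.5032 alike on knockout replicates 4 and 5 and wild-type replicate 4. Equal values on separate arrays can mark a floor of a probe set. Whether this small SD reflects stable expression was not tested. Its dimmer probe set read 4.09, 3.98 and 3.88 on the knockout arrays and 4.26, 4.52 and 4.21 on the wild-type arrays. There the groups did not overlap, with a difference of -0.34, against 0.02 at the brighter probe set. Nid2 differed by -0.05. Col18a1, whose protein carries heparan sulfate at vessel and epithelial basement membranes, differed by -0.19, and by -0.25 at its other probe set.

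**Figure D3:**
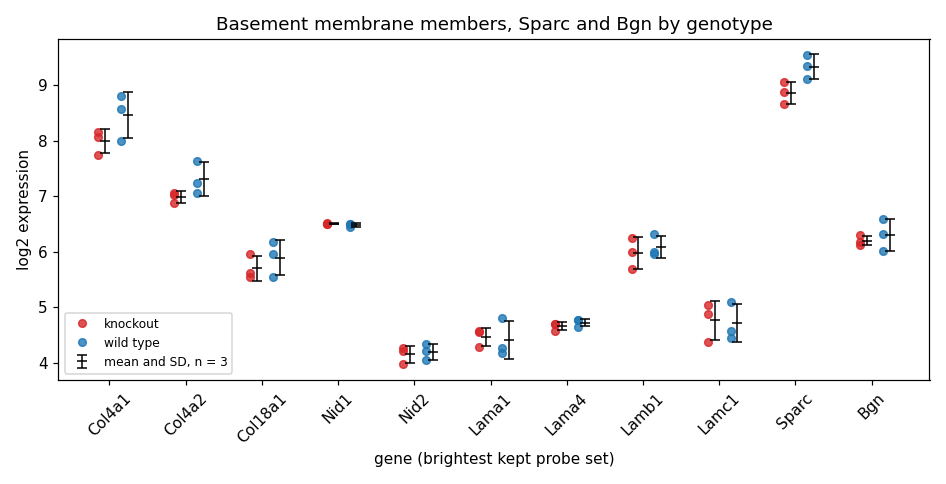
Log2 expression (vertical axis) of the 9 basement membrane genes, Sparc and Bgn at their brightest kept probe set. Red points are the 3 knockout arrays, blue points the 3 wild-type arrays, and black marks the mean and SD of each group. The groups overlap for every gene shown except Sparc.

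Of the other matrix glycoproteins, Sparc, a collagen-binding protein of vessels and connective tissue, read 9.06, 8.88 and 8.66 on knockout replicates 2, 4 and 5 and 9.55, 9.11 and 9.35 on wild-type replicates 1, 4 and 5. The groups did not overlap at this probe set, and the difference was -0.47 (SE 0.15, 95% interval -0.85 to -0.10), 1.39-fold lower in the knockout, with limma's adjusted p = 0.511. A second probe set, with 8.43, 8.99 and 8.57 on knockout arrays and 8.51, 8.36 and 8.48 on wild-type arrays, differed by 0.21, so the direction depended on the probe set. The mean of both differed by -0.13. Thbs1 (thrombospondin-1) read 4.20, 4.17 and 4.18 on the knockout arrays and 2.96, 4.19 and 3.62 on the wild-type arrays. Wild-type replicate 1 was the low array. The difference of 0.59 (SE 0.30; limma's adjusted p = 0.515) was 0.28 without it. Fn1 (fibronectin) differed by -0.06 at its brightest probe set and by 0.17 at the other, and Fbln1 (fibulin-1) by -0.03.

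Nnat (neuronatin), an imprinted gene expressed in neurons as well as in other tissues, was the brightest of the genes. It read 13.79, 13.89 and 13.75 on the knockout arrays and 13.94, 13.76 and 13.74 on the wild-type arrays, a difference of -0.00376. The groups overlapped.

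Compared as a list, the spread between arrays was larger than the genotype difference for most of these genes. None of the 20 genes passed limma's adjusted threshold of 0.05, and none did among all 22565 probe sets tested (0%), where the smallest adjusted p was 0.511 and 2121 (9.4%) had an unadjusted p below 0.05. At limma's unadjusted p below 0.05 there was 1 of the 20, Sparc, against 7.9% of all genes (3.91% lower and 3.99% higher). That count of 1 became 4 when wild-type replicate 4 was left out. It became 0 when knockout replicate 4 or 5, or wild-type replicate 1 or 5, was left out alone. The groups did not overlap for 1 of the 20, again Sparc, against 16.4% of all genes (7.96% lower and 8.45% higher). With no filter, 3 of the 83 member probe sets had a limma unadjusted p below 0.05, of Sparc, Nid1 and Bgn, against 4.32% of all. These 3 had also passed the filter, and with it limma's unadjusted p was 0.021 for Nid1 and 0.035 for Bgn. Neither was the brightest probe set of its gene, so neither entered the count of 1. Knockout replicate 2 was the highest array for 6 of the 20 genes, against 8.85% of all genes, and wild-type replicate 1 for 9, against 31.4%. They were the highest 2 arrays for 6 of the 20, against 3.49%. Nid1 counted here too, where knockout replicate 2 led wild-type replicate 1 by 0.011. The difference was positive for 8 and negative for 12, from -0.47 for Sparc to 1.31 for Postn, with a median of -0.03. Without knockout replicate 2, it was positive for 6 and negative for 14, with a median of -0.09. Without wild-type replicate 1 it was positive for 10 and negative for 10.

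The median within-genotype SD of the 20 genes was 0.249, against 0.143 over all 10630 genes. In the lists described below it was 0.241 for 28 other matrix genes and 0.220 for 19 markers of endothelium and pericytes. For 10 collagen-processing enzymes it was 0.186, and for 15 other meningeal and mesenchymal markers 0.172. For the 20 genes it was 0.243 against 0.141 over all genes without knockout replicate 2. Without knockout replicate 2 and wild-type replicate 1 it was 0.161 against 0.103. Postn (1.83) and Col3a1 (1.79) held ranks 5 and 6 of all 10630 genes by this SD, and Prrx1 (0.49) rank 183. Without knockout replicate 2 the SDs were 0.18 for Postn, 0.81 for Col3a1 and 0.14 for Prrx1. Without wild-type replicate 1 as well, that of Col3a1 was 0.16. The SD exceeded the absolute genotype difference for 16 of the 20 genes, against 56.2% of all genes, and for 12 of the 20 without knockout replicate 2, against 52.4%. In the median gene of the 20, 8.31% of the variation between the 6 arrays lay between genotypes, against 22.6% in the median of all genes. For Sparc that share was 65.6%, for Col4a2 43.3%, for Col4a1 42.9% and for Thbs1 40.8%. It was 16.0% for Postn and 1.29% for Col3a1.

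**Figure D4:**
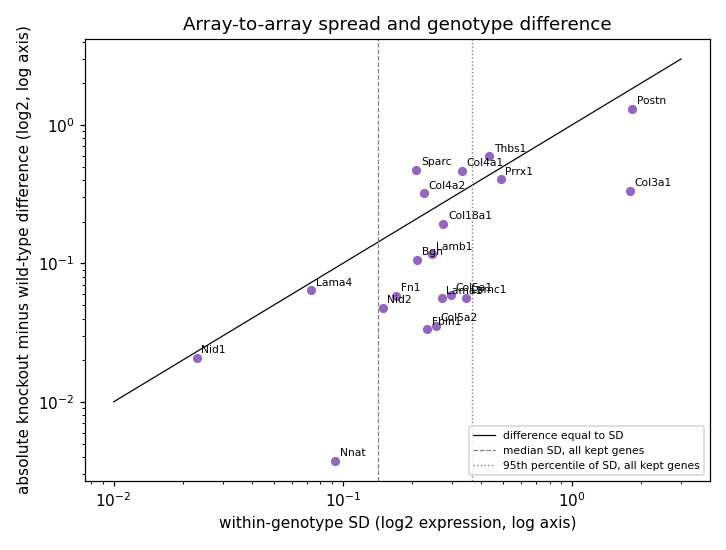
Each point is a member gene that passed the filter, with its within-genotype SD on the horizontal axis and its absolute genotype difference on the vertical axis, both in log2 units on log axes. The solid line marks equality, the dashed line the median SD of all genes (0.143) and the dotted line its 95th percentile (0.367). Col3a1 and Postn lie far to the right and below the line, and Sparc, Col4a1, Col4a2 and Thbs1 lie above it.

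Other genes of matrix and mesenchyme, listed apart from the 40, gave 1 gene each below limma's unadjusted p of 0.05 in 4 lists, the collagen-processing, matrix, marker and vessel lists described next. The share over all genes was 7.9%. The lists were written with earlier results of these data known. Of 10 collagen-processing enzymes that passed the filter, 3 were higher and 7 lower, with 1 at limma's unadjusted p below 0.05, the prolyl hydroxylase subunit P4ha1 (0.36 higher). The collagen chaperone Serpinh1 differed by 0.52, with 8.22, 8.35 and 8.07 on knockout arrays and 7.10, 8.23 and 7.77 on wild-type arrays, where wild-type replicate 1 was the low array. The lysyl hydroxylase Plod3 differed by -0.33. Of 28 other matrix genes 13 were higher and 14 lower, and Ltbp3, which binds latent TGF-beta, was 0.34 higher (6.75 ± 0.07 against 6.41 ± 0.06, SD, n = 3 each; limma's adjusted p = 0.511). The heparan sulfate proteoglycan Agrn differed by -0.34 and the membrane protease Mmp14 by -0.44. Chosen after its values were seen, Col9a1 of that list read 5.81 on knockout replicate 2 and 3.40 to 3.62 elsewhere.

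Of 15 other meningeal and mesenchymal markers that passed, 10 were higher and 5 lower, with 1 at limma's unadjusted p below 0.05, Mdk (0.30 higher). Mdk, Foxp1 (0.46), Vim (0.18) and Zic1 (-0.26) had the lowest p, and all 4 are also expressed by neural progenitors or neurons. Knockout replicate 2 was the highest array for 3 of the 15 and wild-type replicate 1 for 5, against 8.85% and 31.4% of all genes. The next 3 genes were chosen after their values were seen. Pdgfra, a receptor of mesenchyme and of glial progenitors, had the largest difference of the 15, -1.04 (limma's adjusted p = 0.511). It read 5.78, 4.05 and 4.36 on knockout arrays and 6.24, 5.60 and 5.47 on wild-type arrays, so knockout replicate 2 lay among the wild-type arrays and the groups overlapped. The mesenchymal factor Snai2 read 4.89 on knockout replicate 2 and 3.39 to 3.43 elsewhere. Igf2, abundant in mesenchyme and meninges, read 7.61, 6.63 and 6.26 on knockout arrays and 7.27, 6.41 and 6.73 on wild-type arrays, with knockout replicate 2 and wild-type replicate 1 again the highest 2 arrays. Of 19 markers of endothelium and pericytes, cells whose basement membranes contain many of the genes above, 9 were higher and 10 lower, with a median of -0.02. Their mean level was 5.39 to 5.57 on knockout arrays and 5.41 to 5.58 on wild-type arrays, while Abcb1a, Anpep, Cdh5, Cspg4, Erg and Tie1 were above the array median nowhere. Pdgfrb, the receptor of pericytes and of mesenchyme, read 7.33, 7.19 and 7.30 on knockout arrays and 6.92, 6.73 and 6.93 on wild-type arrays, a difference of 0.41 without overlap (limma's adjusted p = 0.511).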

How the data were processed

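The deposited values are the authors' log2 expression, 1 per probe set and array. GCOS and MAS 5.0 processed the images and GCRMA did the normalization between arrays (quantile), the summary and the log2 step, per the labels and the design text. No versions are given there. GCRMA removes background and leaves a floor, so differences near it are compressed.

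Genotype and replicate number came from the sample titles. Genes were named from the platform annotation, using probe sets with exactly 1 symbol. A probe set was kept if above its own array's median on at least 3 of 6 arrays, without regard to genotype, which kept 22565 of 45037 and 31 of the 83 member probe sets. Each gene was read at its brightest kept probe set (10630 genes).

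Genotypes were compared with limma 3.58.1 in R 4.3.3 (lmFit, eBayes, two-sided, Benjamini-Hochberg over all kept probe sets, threshold 0.05). The script was tested on simulated data. The genes and lists were chosen with earlier results of these data known. Given on every array were, per role group, the 2 genes of largest within-genotype SD and the 2 of lowest p, and further genes were named after their values were seen. From each other list at most 4 genes of lowest p were named, apart from genes said to be chosen after their values were seen and markers of other cell types. Alternatives changed the filter, normalization, variance model, array weights, replicate block, probe set per gene and arrays used.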

Additional observations from a re-analysis of the deposited data

How the results depend on the processing

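No gene of the list passed limma's adjusted threshold under any of the 16 alternatives with a test. The mean of a gene's kept probe sets, a further alternative, gave values with no test. The lowest adjusted p of the 11 genes compared across settings was 0.239. The difference between genotypes changed sign under some settings for 7 of these genes. Leaving out each array in turn, it ranged from -0.25 to 0.035 for Bgn, from -1.01 to 1.02 for Col3a1, from -0.11 to 0.19 for Col5a1, from -0.081 to 0.25 for Lamc1, from -0.043 to 0.060 for Nnat and from -0.19 to 2.10 for Postn. With knockout replicate 2 and wild-type replicate 1 both left out it was 0.070 for Bgn, -0.45 for Col3a1, -0.075 for Col5a1, 0.067 for Nnat and -0.077 for Postn, and the median within-genotype SD was 0.161. With knockout replicate 2 and wild-type replicate 4 both left out it was -1.37 for Col3a1, -0.27 for Col5a1, -0.068 for Lamc1, -0.23 for Postn and -0.041 for Prrx1. With array weights it was -0.11 for Col5a1 and 0.040 for Nnat, and with median centring 0.0067 for Nnat.

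Replicate numbers 4 and 5 occur in both genotypes. The deviations of same-numbered arrays correlated at -0.29 for number 4 and 0.32 for number 5. Arrays of different number were not compared, so these values cannot decide pairing. The numbers were not taken as pairs because no label says that they mark a shared litter or day. With a replicate block the differences were 0.070 for Bgn, -0.45 for Col3a1, -0.075 for Col5a1, 0.067 for Nnat and -0.077 for Postn, with a median of -0.066 over the 20 genes. These equal the values that leave out knockout replicate 2 and wild-type replicate 1, whose numbers are unshared and are absorbed by the block.

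Probe sets at limma's unadjusted p below 0.05 numbered 2121 in all, 3491 with array weights and 3276 when wild-type replicate 4 was dropped together with knockout replicate 2. Leaving out 1 array gave 1205 for knockout replicate 4 and 1121 for knockout replicate 5. It gave 1402 for wild-type replicate 1 and 3490 for wild-type replicate 4. Genes of the list at that p numbered 1, 2 with array weights, 3 when wild-type replicate 4 was dropped together with knockout replicate 2, and 2 when wild-type replicate 1 was dropped together with it. Genes of the list lower in the knockout numbered 12, and 7 without knockout replicate 5. The SD exceeded the difference for 8 of 20 genes when wild-type replicate 4 was dropped together with knockout replicate 2, and for 33 of 39 with no filter. The cause of these shifts was not tested.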

Other observations

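Of the 31 probe sets at least 1 above every other array on knockout replicate 2, 21 did not belong to the genes above, and these were looked at after the values were seen. Gpc3 (glypican-3), a cell-surface proteoglycan of embryonic mesenchyme, read 5.64 on knockout replicate 2 and 3.30 to 3.48 elsewhere. Aspn (asporin), a small leucine-rich proteoglycan like Lum and Ogn, read 4.0 on knockout replicate 2 and 2.27 to 2.44 elsewhere, and 3.69 against 2.27 at a second probe set. Bnc2, a zinc finger factor of connective tissue, read 4.64 on knockout replicate 2 and 2.89 to 3.57 on the others. Dsp (desmoplakin), a protein of desmosomes, read 5.27 against 3.26 to 4.04, and 4.59 against 3.06 to 3.21 at a second probe set. Rab39b, a small GTPase, read 6.73 on knockout replicate 2 and 5.31 to 5.67 on the others.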
